A study of Homo sapiens with 4 samples.

Results

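The genes described here encode the HSP90 chaperones and the proteins that work with them: HSP90AA1, HSP90AB1, TRAP1, AHSA1, STIP1, FKBP4, FKBP5, CDC37, PTGES3 and CHORDC1. Their probe sets were those that the array's annotation pairs with exactly 1 of these gene symbols, which gave 22 of the 54675 probe sets. They cover 9 of the 10 genes, among 19775 genes with such a probe set on the array. AHSA1, an activator of the HSP90 ATPase, was paired with no probe set in that annotation and was not analysed here. The cells were U937, an established human line from a lymphoma with monocytic features. In the shikonin group (2 samples) the line was exposed to shikonin, a plant naphthoquinone, at 100 nM for 3 h. In the control group (2 samples) it received the solvent dimethyl sulfoxide (DMSO), for which no time was stated. Nothing in the labels says that the samples of a group were separate cultures, so the p-values below measure only the spread between these samples, which may be technical. The comparison asks which transcripts differed between shikonin and its solvent.

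HSP90 is an ATP-driven clamp that acts late in folding, after HSP70, on kinases, steroid hormone receptors and other client proteins. Its co-chaperones deliver clients, set the pace of the ATPase or carry their own enzyme activity, and many of them bind the clamp through tetratricopeptide repeats. HSP90AA1 is the stress-inducible cytosolic form, HSP90AB1 the more constitutive cytosolic form and TRAP1 the mitochondrial form. In stressed cells, heat shock factor 1 binds heat shock elements, in which the units GAA and TTC alternate with a short gap between them.

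Upstream sequences of the genes were searched for such elements because several of the genes rose together. The 250 bases before each start site came from RefSeq (GRCh38.p14), where 9 of the 10 genes had 15 windows. FKBP4 had none in that table. The motifs were GAANNTTC and TTCNNGAA for 2 units, and GAANNTTCNNGAA and TTCNNGAANNTTC for 3. Each 2-unit motif reads the same on both strands and the 3-unit motifs are each other's reverse complement, so both strands were covered. Every 3-unit match contains 2-unit matches. A 3-unit match was found for 3 of the 9 genes, HSP90AA1, HSP90AB1 and CHORDC1, and for 0.557% of all 27305 genes with a window. Counted over windows, it was 3 of 15, against 0.441% of all 35116. The same 3 genes were the ones with a 2-unit match, which 14% of all genes and 11.6% of all windows held. The 3 windows follow, read 5′ to 3′ on the strand of the gene, with the matched bases in capitals.
HSP90AA1 (chr14:102087045-102087294, minus strand): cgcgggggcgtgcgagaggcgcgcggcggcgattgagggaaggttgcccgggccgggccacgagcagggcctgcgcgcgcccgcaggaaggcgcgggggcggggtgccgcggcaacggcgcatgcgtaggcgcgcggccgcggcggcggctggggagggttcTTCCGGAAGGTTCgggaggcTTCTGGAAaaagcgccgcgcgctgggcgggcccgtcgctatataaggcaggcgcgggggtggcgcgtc
HSP90AB1 (chr6:44247693-44247942, plus strand): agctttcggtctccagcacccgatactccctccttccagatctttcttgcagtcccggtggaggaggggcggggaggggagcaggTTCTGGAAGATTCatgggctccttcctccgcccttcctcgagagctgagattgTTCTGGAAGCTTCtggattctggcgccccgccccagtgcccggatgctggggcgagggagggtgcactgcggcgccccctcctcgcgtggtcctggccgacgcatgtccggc
CHORDC1 (chr11:90223050-90223299, minus strand): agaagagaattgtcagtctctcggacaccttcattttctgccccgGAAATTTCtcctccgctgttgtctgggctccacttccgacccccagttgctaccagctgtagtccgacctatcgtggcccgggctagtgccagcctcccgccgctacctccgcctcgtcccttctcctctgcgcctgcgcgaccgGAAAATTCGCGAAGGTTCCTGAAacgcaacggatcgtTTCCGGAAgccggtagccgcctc
The HSP90AA1 window held 1 match of 3 units, which began 88 bases before the start site, and a separate 2-unit match 68 bases before it. The HSP90AB1 window held 2 matches of 3 units, 165 and 112 bases before the start site. This window belongs to the most downstream of the gene's 3 listed start sites, and the other 2 windows had no match. In CHORDC1, 3 overlapping matches of 3 units began 60, 55 and 50 bases before the start site, and further 2-unit matches lay 205 and 23 bases before it. No match was found in the windows of TRAP1, AHSA1, STIP1, FKBP5, CDC37 and PTGES3, nor in the second window of HSP90AA1. A match is a run of letters and not a measured binding site. Elements with an altered unit, another gap or a place outside the 250 bases would be missed by this search.

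**Figure D1:**
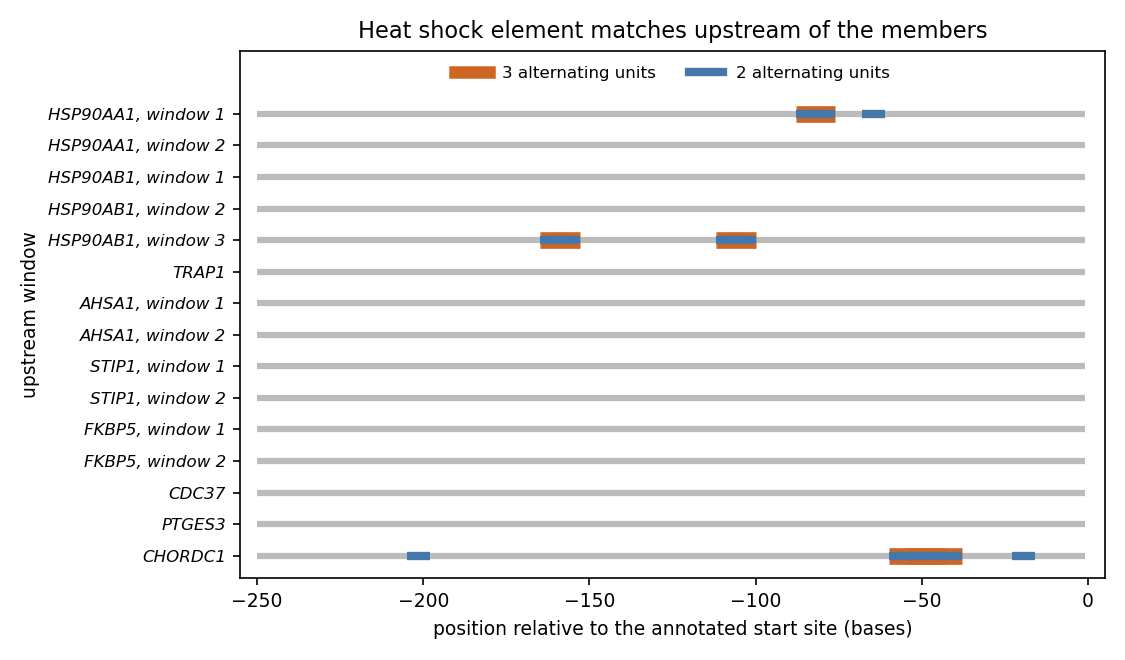
Positions of heat shock element matches in the 15 upstream windows of 9 genes, in bases relative to each annotated start site. Orange bars are 3-unit matches and blue bars 2-unit matches, and only HSP90AA1, HSP90AB1 (window 3) and CHORDC1 carry any.

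Messages for both cytosolic HSP90 forms and for 5 of these 6 measured co-chaperones, all but FKBP5, were higher after shikonin. On each gene's brightest probe set the rise was largest for CHORDC1 (1.70-fold), STIP1 (1.60-fold), FKBP4 (1.55-fold) and HSP90AA1 (1.43-fold, but 2.03-fold on another). It was smaller for CDC37 (1.20-fold), PTGES3 (1.18-fold) and HSP90AB1 (1.17-fold). TRAP1 and FKBP5 did not pass the test. Each gene is represented in these counts by its brightest tested probe set, and folds are on the scale of log2(signal + 9.94), where 9.94 is the 20th percentile of all signals. A gene was called at an adjusted p under 0.05 in limma, a linear model with a moderated variance, with p-values adjusted by Benjamini and Hochberg's method across the 32768 probe sets tested.

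These genes and the lists below were chosen with earlier results of these data known. Their shares beside those of all genes are therefore descriptive and test nothing about the lists. Of the 9 genes, 7 were called higher, where 5.05% of all 13554 genes tested were called higher. None was called lower, where 6.68% of all genes were called lower. Among the 2117 genes at least as bright as the dimmest of the 9 (mean signal 3014), 11.9% were called higher and 7.42% lower. The median log2 change was 0.26 over the 9 genes, 0.00 over all genes and 0.07 over those bright genes. In 8 of the 9 genes, all but FKBP5, both shikonin arrays lay above both DMSO arrays, against 28.2% of all genes and 48.7% of the bright ones, and in no gene did both lie below (27.3% and 20.1%). Of the 22 probe sets, 20 passed the filter on dim probe sets and 14 of these were called higher (3.92% of all probe sets), with none lower (5.28% of all). In 16 of the 20, both shikonin arrays lay above both DMSO arrays, as they did in 27% of all probe sets tested, and in none did both lie below (26.1%). The moderated variance was allowed to follow the signal. When limma instead used 1 prior for all signals, it called none of the 9 genes and none of all genes, although 5 of the 9 and 2417 of all had an unadjusted p under 0.05.

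**Figure D2:**
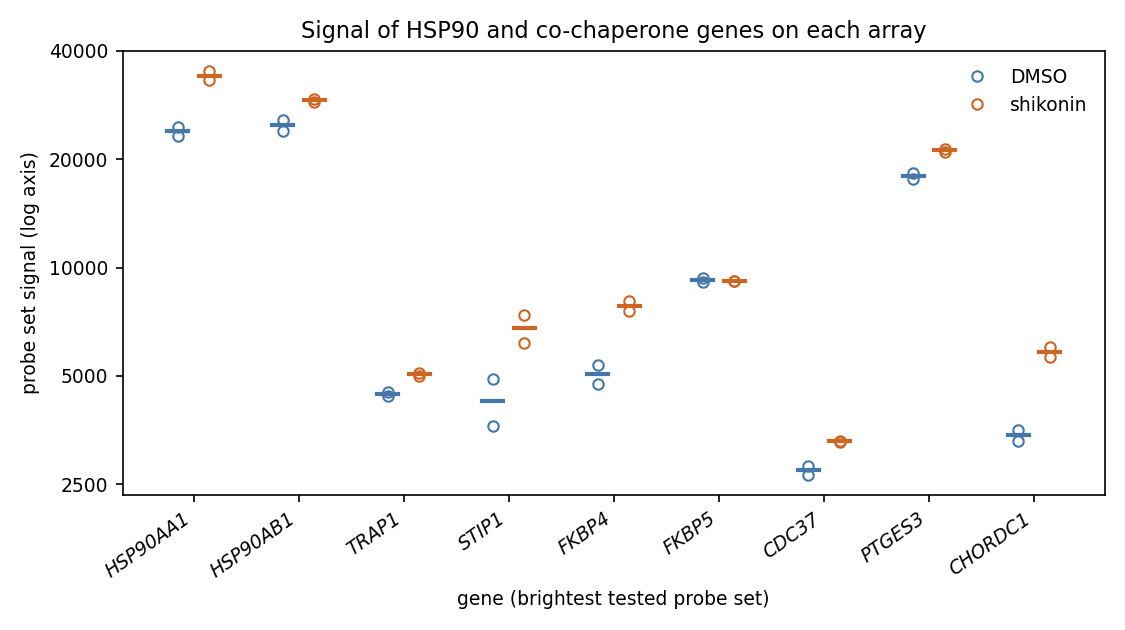
Signal (log axis) of the brightest tested probe set of each of the 9 genes on the 4 arrays. Open circles are single arrays and bars are means of 2. The shikonin circles lie above the DMSO circles for every gene except FKBP5, where they overlap. Levels of different genes cannot be set against each other.

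HSP90AA1 was read by 4 probe sets, and all of them rose. On the brightest (214328_s_at) the signal was 23249 and 24515 in DMSO and 33127 and 35089 after shikonin. The groups stood well apart, with means of 23882 ± 895 and 34108 ± 1387 (SD, n = 2 each). The log2 change was 0.51 (SE 0.051, limma adjusted p = 0.00052). The other probe sets rose by 0.57 (210211_s_at), 0.65 (211969_at) and 1.02 (211968_s_at) on the log2 scale. The last of these went from 15032.5 and 14974 in DMSO to 30094 and 30896, a 2.03-fold rise (SE 0.046, limma adjusted p = 4.75e-06). This probe set had the largest change of the 4 and 214328_s_at the smallest, and they are set side by side as those extremes, with no test. Within each array, the log2 ratio of 211968_s_at over 214328_s_at was -0.63 and -0.71 in DMSO and -0.14 and -0.18 after shikonin. The brightest signals of any probe set on the 4 arrays ran from 41709 to 45934.

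HSP90AB1, the constitutive form, rose less on all 3 of its probe sets. The brightest (1557910_at) read 23963 and 25751.5 in DMSO and 28852 and 29368 after shikonin. The groups did not overlap, with means of 24857 ± 1264 and 29110.2 ± 365 (SD, n = 2 each). The log2 change was 0.23 (SE 0.051, limma adjusted p = 0.0244). For 200064_at the arrays read 23357.5 and 24833 in DMSO and 27223 and 28535 after shikonin (log2 change 0.21, limma adjusted p = 0.0353). For 214359_s_at they read 20285 and 21056, then 26071 and 26365 (0.34, limma adjusted p = 0.00268). Only 214359_s_at kept its call without any 1 array (limma adjusted p 0.00449 to 0.0186). The brightest lost it without DMSO 1 (0.106), shikonin 1 (0.0927) or shikonin 2 (0.125), and quantile normalization shrank its log2 change to 0.11 (adjusted p = 0.0699). The log2 ratio of HSP90AA1 over HSP90AB1, each on its brightest probe set, was -0.04 and -0.07 in DMSO and 0.20 and 0.26 after shikonin. The ratio was higher by 0.29 after shikonin without overlap (two-sided exact permutation p = 0.333, the smallest that 2 arrays against 2 allow).

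TRAP1 folds and guards proteins in mitochondria. Its bright probe set (201391_at) read 4514 and 4412 in DMSO and 5097 and 5009 after shikonin. The shikonin arrays lay above both controls, but the change did not pass (log2 change 0.18, 95% interval 0.05 to 0.31, limma adjusted p = 0.0856). It passed when the replicate number was used as a block (0.0321). The second probe set (239622_at) was dim, at 4.69 and 20.8 in DMSO and 3.82 and 1.16 after shikonin, and was not tested. HSP90AA1 over TRAP1 had log2 ratios of 2.36 and 2.47 in DMSO and 2.70 and 2.81 after shikonin, a shift of 0.34 in the ratio (exact permutation p = 0.333).

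STIP1, also called HOP, bridges HSP70 and HSP90 and passes clients from one to the other. Both of its probe sets rose. The brighter (213330_s_at) read 3639 and 4898 in DMSO and 6171 and 7395 after shikonin. Its arrays were spread widely within each group, yet the lowest shikonin array was above the highest control (log2 change 0.68, SE 0.13, limma adjusted p = 0.0133). The other (212009_s_at) was tighter, at 2691 and 2836 in DMSO and 4424 and 4601 after shikonin. It gave a log2 change of 0.71 (SE 0.063, limma adjusted p = 0.00031). Without any 1 array the change of 213330_s_at ran from 0.46 to 0.89 and stayed called, and the lowest value came without DMSO 1.

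FKBP4 and FKBP5 are related immunophilins, peptidyl-prolyl isomerases that compete for HSP90 in steroid receptor complexes. FKBP4 (FKBP52) favours hormone binding and transport of the glucocorticoid receptor to the nucleus, and FKBP5 (FKBP51) restrains both. FKBP4 read 4737 and 5369 in DMSO and 7566 and 8070.3 after shikonin on its brightest probe set (200895_s_at). The groups were well separated, with a log2 change of 0.63 (SE 0.071, limma adjusted p = 0.00102). The second (200894_s_at) read 2562 and 2602, then 3798 and 3764, a log2 change of 0.55 (SE 0.061, limma adjusted p = 0.00097). Its 2 dim probe sets had signals of 55.2 to 127 over the 4 arrays. They gave log2 changes of 0.19 (1560305_x_at, 95% interval -0.56 to 0.94) and 0.69 (1560303_at, -0.00 to 1.39), and neither passed.

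FKBP5 passed the test on none of its 3 probe sets, and its changes were close to 0. The brightest (224840_at) read 9329.9 and 9098 in DMSO and 9176 and 9187 after shikonin, so that both shikonin arrays fell between the controls. Its log2 change was -0.0049 with a 95% interval of -0.12 to 0.11 (limma adjusted p = 0.969). For 224856_at the signals were 6342 and 6430.5 in DMSO and 6598 and 6207 after shikonin, and for 204560_at they were 2535 and 2732, then 2533 and 2698. The intervals of these changes ran from -0.13 to 0.13 and from -0.17 to 0.15. For the brightest probe set of FKBP4 the interval was 0.47 to 0.79, which lies wholly above that of FKBP5. In log2 terms, FKBP4 over FKBP5 went from -0.98 and -0.76 in DMSO to -0.28 and -0.19 after shikonin. The ratio of these 2 genes moved by 0.64, without overlap of the arrays (exact permutation p = 0.333).

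CDC37 recruits protein kinases to HSP90. Its 1 probe set (209953_s_at) read 2812 and 2663 in DMSO and 3307 and 3272 after shikonin. The arrays of the groups did not overlap, and the log2 change was 0.26 (SE 0.064, limma adjusted p = 0.0346). The call did not survive the loss of any array: the adjusted p was 0.0544 without DMSO 1, 0.141 without DMSO 2, 0.129 without shikonin 1 and 0.106 without shikonin 2, while the log2 change stayed between 0.23 and 0.30.

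PTGES3, the p23 protein, binds closed HSP90 and slows its ATPase late in the cycle. It read 18358 and 17606 in DMSO and 20979.7 and 21365 after shikonin (200627_at). The groups were apart, with a log2 change of 0.24 (SE 0.048, limma adjusted p = 0.0173). It kept the call without DMSO 1 (0.0269) but lost it without DMSO 2 (0.0729), shikonin 1 (0.075) or shikonin 2 (0.104). Quantile normalization lowered the change to 0.14 (adjusted p = 0.0848).

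CHORDC1, also called CHP-1 or morgana, is a zinc-binding co-chaperone that contacts HSP90 through a CS domain like that of p23. It showed the largest change of the 9 genes on their brightest probe sets. Signals were 3539 and 3300.1 in DMSO and 6029.6 and 5645 after shikonin (218566_s_at). The means were 3420 ± 169 and 5837 ± 272 (SD, n = 2 each), far apart relative to the spread, with a log2 change of 0.77 (SE 0.065, limma adjusted p = 0.00022). Without any 1 array the change remained between 0.72 and 0.82 and was called. A dim second probe set (239436_at) read 9.38 and 15.9 in DMSO and 46.5 and 59.9 after shikonin. On both DMSO arrays it was under the signal that 40% of probe sets fail to reach, on both shikonin arrays it was over it, and it was not tested. The upstream window of CHORDC1, shown above, holds the 3 overlapping 3-unit matches. HSP90AA1 and HSP90AB1, which also had 3-unit matches, changed by 0.51 and 0.23 on the log2 scale. STIP1, which had no match in its windows, changed by 0.68. A link between matches and changes was not tested.

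**Figure D3:**
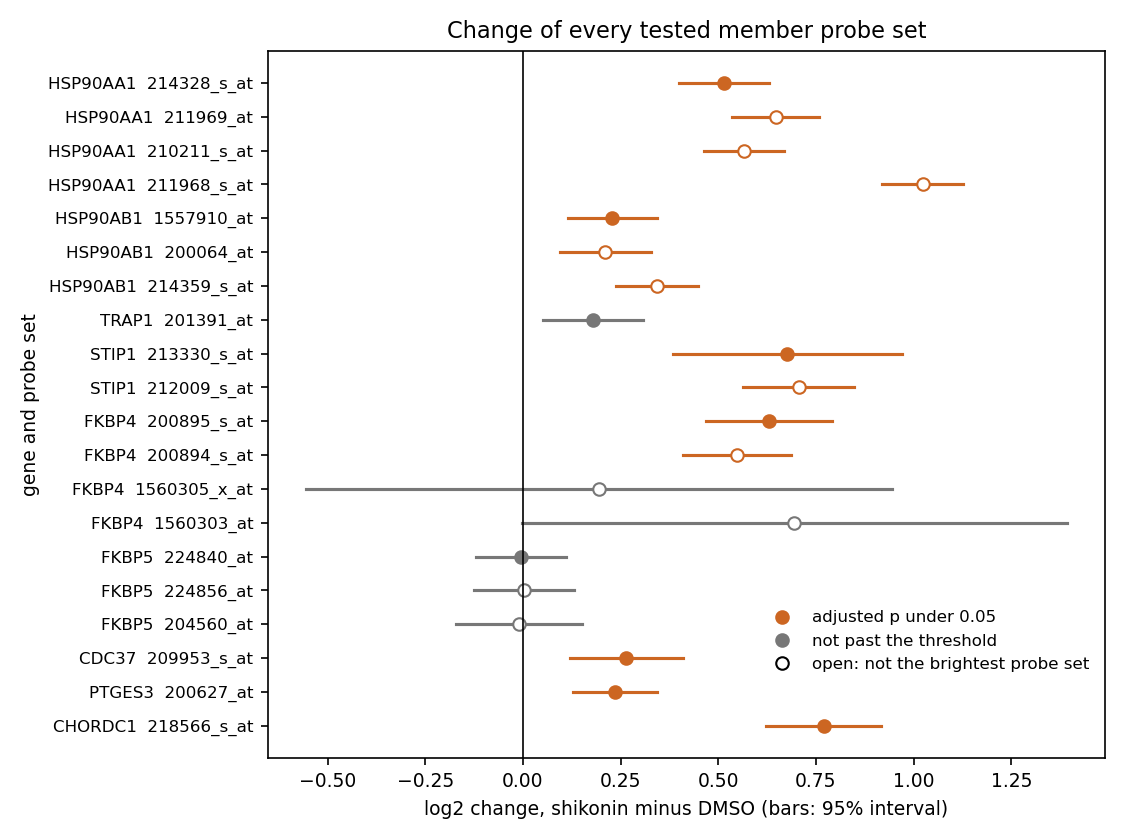
Log2 change (shikonin minus DMSO) of the 20 tested probe sets of the 9 genes, with 95% intervals from limma. Orange marks an adjusted p under 0.05 and open circles are probe sets that are not their gene's brightest. The 4 HSP90AA1 probe sets run from 0.51 to 1.02, and the 3 FKBP5 probe sets sit at 0.

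Array probes can also read close copies of these genes. RefSeq lists 5 pseudogenes named after HSP90AA1, 6 after HSP90AB1, 5 after FKBP4, 5 after PTGES3, 4 after CHORDC1, 3 after STIP1 and 2 after CDC37, and none after FKBP5 or TRAP1. Of the 20 tested probe sets, 10 end in _s_at and 1 in _x_at, the classes that can match more than 1 transcript. The 9 others end in plain _at, and 4 of them were called: 1 of HSP90AA1 (211969_at), 2 of HSP90AB1 and that of PTGES3. STIP1, CDC37 and CHORDC1 were tested only through _s_at probe sets, and the 2 bright ones of FKBP4 are of that class. The share of signal that comes from copies was not tested.

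**Figure D4:**
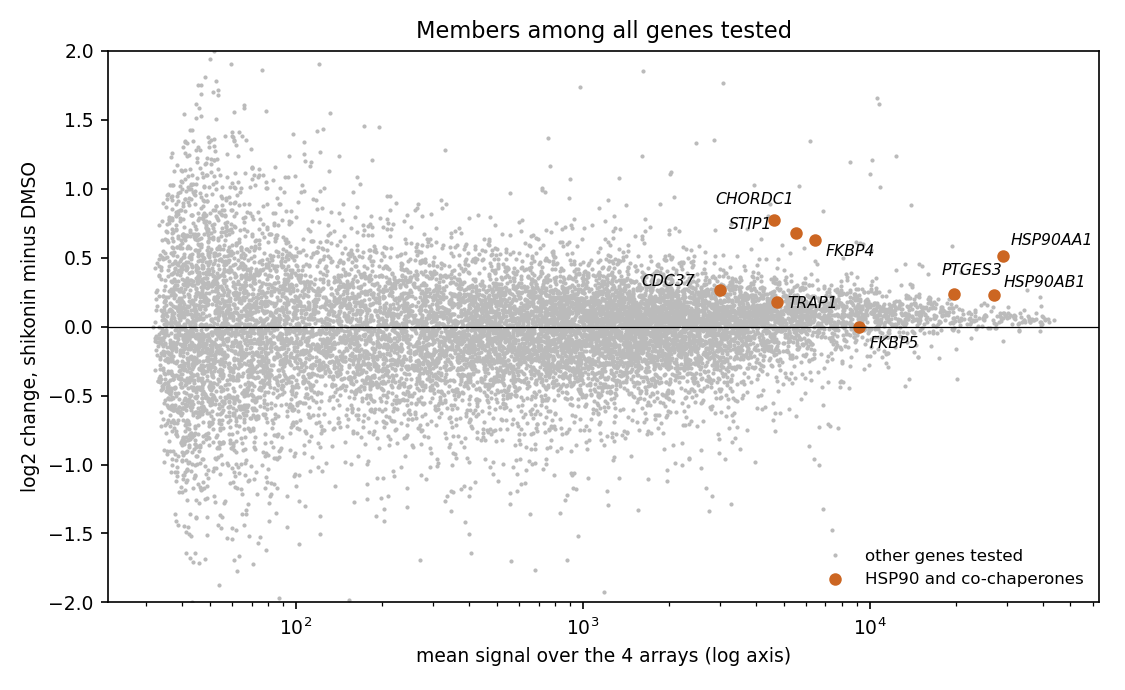
Log2 change against mean signal over the 4 arrays (log axis) for the 13554 genes tested, with the 9 genes in orange. The vertical axis ends at -2 and 2, which leaves out 13 genes. CHORDC1 (0.77), STIP1 (0.68), FKBP4 (0.63) and HSP90AA1 (0.51) lie clearly above the zero line and FKBP5 lies on it.

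Over the 4 arrays, the genes whose centred log2 values lay closest to those of HSP90AA1 were ALG6, EXO1, NUDC, UBBP1 and YAE1, at Euclidean distances of 0.042 to 0.051. With 4 arrays such a likeness mostly says that the change was of similar size (log2 change 0.48 to 0.56). NUDC, a further co-chaperone of HSP90, is described next.

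Other paralogs and co-chaperones of HSP90 were taken from a list of 34 genes, of which 33 were tested. Of these, 6 were called higher (18.2%, against 5.05% of all genes) and none lower (against 6.68%), with a median log2 change of 0.10. Among the 2117 bright genes described above, 11.9% were called higher and 7.42% lower, with a median of 0.07. The list holds genes of that brightness, such as NUDC, and dimmer ones, such as TTI1. NUDC, which has a p23-like fold, read 5218 and 5504 in DMSO and 7377 and 7564 after shikonin. That is a log2 change of 0.48 (SE 0.057, limma adjusted p = 0.0013), and its second probe set rose by 0.47. PPID, the immunophilin cyclophilin 40, read 2848 and 2805 in DMSO and 4093 and 3974 after shikonin, a log2 change of 0.51 (SE 0.061, limma adjusted p = 0.00134). A second PPID probe set rose by 0.52, but the remaining one (ending in plain _at) changed by -0.051 and did not pass.

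SUGT1, which joins HSP90 to immune receptors and the kinetochore, rose by 0.30 on its brightest probe set and by 0.78 to 1.06 on 3 of its other 4, with the last at 0.22 not passing. HSP90B1, the HSP90 of the endoplasmic reticulum, rose by 0.27 (3548 and 3458 in DMSO, 4276 and 4180.3 after shikonin, limma adjusted p = 0.0235), and its other probe set, at 0.39, did not pass. RUVBL2, an ATPase of the R2TP complex, rose by 0.22 and by 0.26 on another probe set, but its remaining one lay at -0.24 without passing, and the mean of all 3 gave 0.079 (limma adjusted p = 0.603). TTI1, a partner of TELO2 in kinase assembly, rose by 0.48. The calls of HSP90B1 and RUVBL2 were lost without any 1 of the 4 arrays (adjusted p 0.0542 to 0.11 and 0.0559 to 0.129). SUGT1 and TTI1 lost theirs without DMSO 2 or shikonin 1, and the list then held 2 genes called higher in each case. NUDC and PPID were called without any 1 array. TTI2, the partner of TTI1, was just outside the threshold (0.39, limma adjusted p = 0.055) and is named after its value was seen.

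Client proteins of HSP90, chiefly kinases, receptors and transcription factors, were followed at the level of their messages in a list of 48 genes, 42 of them tested. None was called higher (5.05% of all genes were) and 7 were called lower (16.7%, against 6.68%), with a median log2 change of -0.02. NLRP3, the sensor of an inflammasome, fell from 1220 and 1231 in DMSO to 524 and 491 after shikonin, a log2 change of -1.26 (SE 0.095, limma adjusted p = 0.00011). Its second probe set fell by 1.64 on the log2 scale. HIF1A, the oxygen-regulated transcription factor, read 4241 and 3839.8 in DMSO and 2452 and 2387 after shikonin (log2 change -0.74, limma adjusted p = 0.00041). AHR, a receptor for aromatic ligands, fell by 0.61, STAT3 by 0.34, EIF2AK1, the haem-regulated kinase, by 0.34 and LYN, a SRC family kinase, by 0.29. The other probe set of EIF2AK1 lay at -0.13 and did not pass, and of the 3 others of STAT3 1 fell by 0.34 while those at -0.16 and -0.13 did not pass. With the mean of all probe sets of a gene, EIF2AK1 and STAT3 lost their calls (limma adjusted p = 0.067 and 0.175).

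The 7th client called lower, INSR, the insulin receptor, changed by -0.62 (limma adjusted p = 0.0433). It lies outside the rule for named genes and was added after its value was seen. Its own call was not followed over the alternatives. Without shikonin 1 the calls of AHR and EIF2AK1 were lost (0.0568 and 0.0508). LYN lost its call without DMSO 2, shikonin 1 or shikonin 2 (adjusted p up to 0.0884) and STAT3 without shikonin 2 (0.062). Clients called lower numbered 4 without shikonin 1, when 1 was called higher. NLRP3 and HIF1A kept their calls without any 1 array. HSF1, the heat shock factor that HSP90 can hold inactive, did not pass (0.10, limma adjusted p = 0.567; 1188 and 1051 in DMSO, 1199.7 and 1193 after shikonin), and its second probe set lay at -0.10.

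The glucocorticoid receptor, NR3C1, is a classical client that FKBP4 and FKBP5 regulate, and FKBP5 is itself one of its target genes. NR3C1 read 2994 and 2671 in DMSO and 2505 and 2471 after shikonin on its brightest probe set. The change did not pass (log2 change -0.18, limma adjusted p = 0.165), but 1 of its 4 other tested probe sets fell by 0.33 (limma adjusted p = 0.0496). The other 3, at -0.18 to 0.06, did not pass. Of 17 further target genes listed, 12 were tested, with a median log2 change of -0.44. Of these, 5 were called lower (41.7%, against 6.68% of all genes) and 1 higher (8.33%, against 5.05%). TSC22D3, the glucocorticoid-induced leucine zipper, fell from 1592 and 1612 in DMSO to 984 and 855 after shikonin (log2 change -0.80, SE 0.092, limma adjusted p = 0.00112). KLF9, a zinc finger factor, fell by 1.19 on the log2 scale, with its 3 other probe sets at -0.07, -0.73 (neither passing) and -1.30 (called). SGK1, a kinase of ion transport, fell by 0.90.

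IRS2, an adaptor of insulin signalling, fell by 0.40 and NFKBIA, the NF-kB inhibitor, by 0.48. These 5 calls held without any 1 array. The other probe set of TSC22D3, at -0.76, did not pass (limma adjusted p = 0.0569), while that of IRS2, at -0.55, was called. With the mean of all probe sets of a gene, KLF9 lost its call (-0.82, limma adjusted p = 0.106) and TSC22D3 kept it (-0.78, 0.00447). TXNIP, which binds thioredoxin, was the target called higher (0.41). It lost its call without DMSO 1, DMSO 2 or shikonin 1, and its 2 other probe sets, at 0.11 and 0.16, did not pass. FKBP5, whose 3 probe sets had log2 changes of -0.0094 to 0.0029, is not counted in this list. These genes answer to other signals as well as to the receptor, and the part of the receptor in their levels was not tested.

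**Figure D5:**
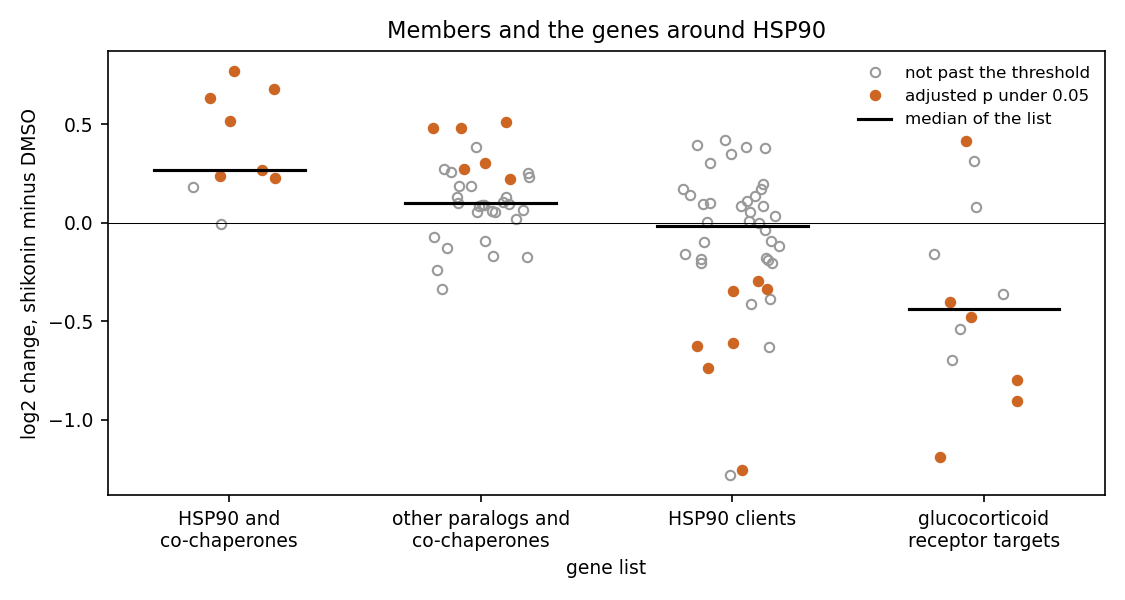
Log2 change of the 9 genes and of the tested members of 3 surrounding lists. Each circle is the brightest probe set of a gene, filled where the adjusted p is under 0.05, and the bar is the list's median. The medians are 0.26, 0.10, -0.02 and -0.44 from left to right.

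The 4 arrays were alike, with median signals of 60.5 to 63.7 and correlations of log2 signals of 0.97 within and between groups. The labelled cell type was checked on 17 myeloid markers. Of 16 with a probe set, 14 lay above the 40th percentile on all arrays, among them CTSG, ELANE, LYZ and ITGB2, while CD14 and FCGR1A did not. That percentile was a signal of only 34.8 to 37.4. MPO (median 68.3), CSF1R (130) and ITGAM (202) passed it at low signals. The summed myeloid signal was 81910 to 87283 in DMSO and 82269 to 88033 after shikonin, and none of the 14 tested markers was called. Markers of T cells summed to 247 to 334 and 255 to 265 and those of B cells to 716 to 732 and 700.1 to 781, in the same order. Of these markers, CD2 (median 49.6) of the T cell list and CD79A, PAX5 and CD22 (273, 335 and 86.5) of the B cell list lay above the 40th percentile on all arrays, while CD3G was at 6.49. Epithelial markers summed to 137 to 219 and 123 to 171, with KRT8 (80.8) above that percentile on all arrays and EPCAM and KRT19 at 11.2 and 5.50. Erythroid markers, mostly EPOR and KLF1, summed to 870.4 to 901 and 1005 to 1101, with none called, and their part in the results was not tested. Fewer cells of a type and less RNA per cell cannot be told apart in such bulk samples.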

How the data were processed

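Total RNA was amplified from the 3' end, labelled with biotin and hybridized to Affymetrix U133 Plus arrays, 1 for each of 4 samples, per the labels' protocols. The authors deposited 1 linear intensity per probe set and array; how probes were summarised is not given in the sources used. A mean of 500.1 after trimming 2% at each end on all arrays shows that they were scaled to a common level, so changes are relative to the whole array. All sample columns were used.

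Symbols came from the supplied platform annotation: 41097 probe sets had 1 symbol, 1801 several (1 of them naming CHORDC1) and 11777 none. Intensities became log2(signal + 9.94). Controls were left out, as were the dimmest 40% by mean log2 value. limma 3.58.1 in R 4.3.3 (eBayes with trend, two-sided) had 2 residual and 7.1 prior degrees of freedom. It was also run on simulated data whose noise followed the trend exactly, which cannot test the choice of variance prior. Array number limits precision. Pairing by replicate number is not stated in the labels and is an alternative. Other alternatives changed pseudocount, filter, normalization, variance prior, probe set choice and arrays.

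Members and lists were chosen with earlier results of these data known, so their shares of called genes are descriptive. Named were all members, up to 6 called genes with the smallest p per list (the 2 with the smallest p where none was called), NR3C1, HSP90B1, HSF1 and TSC22D3, and the 5 genes closest to HSP90AA1. Promoter sequences are RefSeq's.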

Additional observations from a re-analysis of the deposited data

How the results depend on the processing

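The 4 members with the largest changes, CHORDC1, STIP1, FKBP4 and HSP90AA1, kept their direction under every alternative run on their brightest probe set. STIP1 lost its call there without a filter on dim probe sets (limma adjusted p = 0.0539). Quantile normalization took the calls of HSP90AB1, PTGES3 and RUVBL2 on their brightest probe sets (limma adjusted p = 0.0699, 0.0848 and 0.0952). With a single variance prior the calls fell to 0 for member probe sets, member genes, the other co-chaperones, the clients (lower) and the glucocorticoid targets (0 higher, 0 lower). Without a filter on dim probe sets, which tests more of them, 9 member probe sets, 3 member genes and 3 other co-chaperones were called higher, and 0 glucocorticoid targets. Of all genes, 1.77% were then called higher, against 5.05% with the filter. When only probe sets of neither class _x_at nor _s_at were used, 3 of 6 member genes and 3 co-chaperones were called higher. Of all genes, 4.56% were then called higher and 6.28% lower. Only 5 of the targets could be tested, and of these 1 was lower and 0 higher. TSC22D3, KLF9, IRS2 and NFKBIA, called lower above, had no such probe set among those tested. PPID was then read by its plain _at probe set, at -0.051 (limma adjusted p = 0.884). FKBP4 was read by a dim one, at 0.69 (0.208). With the mean of all probe sets of a gene, 4 clients were lower and 1 higher, and 0 targets were higher. Of all genes, 4.28% were then called higher and 5.62% lower. Without 1 array in turn, the called higher numbered 4 to 5 member genes, 2 to 4 other co-chaperones, 0 to 1 clients and 0 to 1 targets, and 4 to 6 clients were lower. Over the whole array, too, each of these fits called fewer genes in both directions. The replicate block called 3 clients higher and TRAP1, and lost no member gene. Over all probe sets tested, same-numbered arrays deviated together with a correlation of 0.022. Most of those probe sets are dimmer than the brightest ones of the members, so this value does not decide whether the cultures were paired. The cause of these changes was not tested. Genes called over the whole array under the single prior numbered 0, and under the block 1238 higher and 1328 lower against 685 and 906.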
